A study of Mus musculus with 23 samples.

Results

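The genes described here are 10 genes by which cytotoxic T cells and natural killer (NK) cells are recognised in RNA from whole tissue: Cd3e, Cd8a, Gzma, Gzmb, Prf1, Nkg7, Ncr1, Klrb1c, Eomes and Ifng. They were chosen by symbol from the 48897 genes of the count table, and all 10 were found. RNA sequencing of whole tissue was carried out on 23 samples from male BALB/c mice aged 4 to 6 weeks at the start. CT26, a carcinoma line of the mouse colon, was injected as cells into the serosa of the cecum in 9 mice. Tumor and liver were taken 3 weeks later, giving 9 primary tumors and 9 livers that are called pre-metastatic by the study. In 5 sham-operated mice, medium without cells was injected in the same way, giving 5 control livers. Each tumor has the liver of the same mouse beside it, the labels give no genetic change in any group, and no normal colon was analysed here. Every tumor grew from 1 transplanted cell line, so that the tumors differ by host and not by origin. The comparisons asked how much of the cytotoxic lymphocyte program was present in a liver before metastasis, and how much in the tumor itself.

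Cytotoxic T cells and NK cells kill target cells by releasing granules that hold perforin, which opens the target membrane, and granzymes, proteases that enter and start cell death. T cells recognise peptides on class I molecules through a receptor that signals through the CD3 chains, with CD8 as coreceptor, whereas NK cells read a balance of activating and inhibitory receptors. T-box and RUNX transcription factors drive the effector state in both lineages, and interferon gamma is the cytokine by which both act on macrophages and tumor cells. The liver is rich in NK cells and in related innate lymphoid cells.

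The libraries held 44587556 to 79773163 counts each. Liver and tumor were told apart by their marker genes, in that 5 hepatocyte genes summed to between 31433 and 65434 RPKM (reads per gene length and counted reads of the library) in the 14 livers and to between 6.37 and 264 RPKM in the tumors. The libraries differed in 3 ways that bear on what follows. The livers fell into 2 sets on 6 genes of the circadian clock, with 9 livers in an early phase (4 control and 5 pre-metastatic) and 5 in a late phase (1 control and 4 pre-metastatic). The liver of mouse M6 held the most transcripts of genes that were high in tumors and low in control livers. Over 220 genes with at most 10 counts in each control liver and at least 1000 counts in at least 1 tumor, the summed count was 9067 in the M6 liver, 967 to 4821 in the other pre-metastatic livers and 411 to 483 in the control livers. The choice of genes kept the control livers low, and every pre-metastatic liver lay above them. Over those genes, the deviations of the M6 liver from the mean of the livers were most like those of the tumor of mouse M12 (Pearson r = 0.390 across genes, which are not independent replicates), and r was 0.0956 with the next tumor. The M10 liver was most like the tumor of its own mouse (r = 0.319, and 0.0580 with the next tumor). The liver of mouse M5 was the highest pre-metastatic liver for 6 of the 10 genes. Fold changes that the M5 or M6 liver moved by more than 1.5 times are given without it as well.

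The T cell genes were weakly expressed in the liver and clearly present in the tumor. Cd3e (chr9:44998735-45009664 of mm10, minus strand), the epsilon chain of the CD3 complex, lay at 0.218, 0.370, 0.505, 0.258 and 0.312 RPKM in the control livers, between 0.0578 and 1.58 RPKM (median 0.246) in the pre-metastatic livers and between 0.870 and 4.56 RPKM (median 2.30) in the tumors. Pre-metastatic livers lay on both sides of the control livers, and the M5 liver reached into the range of the tumors. Cd8a (chr6:71373427-71379171, plus strand), the alpha chain of the CD8 coreceptor, lay at 0.0635, 0.258, 0.218, 0.0125 and 0.0407 RPKM in the control livers, between 0.0794 and 2.18 RPKM (median 0.250) in the pre-metastatic livers and between 1.35 and 6.39 RPKM (median 3.41) in the tumors. These control values rest on only 2 to 46 reads per library. In the M5 liver Cd8a was at 2.18 RPKM against at most 0.408 RPKM in the other pre-metastatic livers, and it was again the single liver inside the tumor range. Cd3e overlaps 2 unnamed gene models, and the sources used here do not state whether reads were counted by strand.

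The NK cell receptors had few reads in liver, and Klrb1c had the lowest median level of the genes described here in the tumors. Ncr1 (chr7:4337678-4345164, plus strand), the activating receptor NKp46, had 0, 12, 8, 0 and 3 reads in the control livers, 2 to 21 reads in the pre-metastatic livers and 29 to 294 reads in the tumors. Its level was at most 0.140 RPKM in the control livers, 0.0166 to 0.252 RPKM (median 0.133) in the pre-metastatic livers and 0.409 to 3.37 RPKM (median 1.33) in the tumors, so that no liver reached a tumor. Klrb1c (chr6:128778485-128788641, minus strand), which encodes NKR-P1C, the receptor that carries the NK1.1 epitope in some strains, had 0, 1, 0, 1 and 0 reads in the control livers, 0 to 9 reads in the pre-metastatic livers and 9 to 58 reads in the tumors. In the tumors this was 0.0665 to 0.394 RPKM (median 0.110). Klrb1c belongs to a family of near-identical neighbours, and reads shared between them may have been lost or assigned to another member in counting. In bulk tissue, fewer cells of a type and less RNA per cell cannot be told apart for any of these genes.

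The granule genes were the most abundant of the 10 in the tumors. Gzma (chr13:113093827-113100981, minus strand) encodes granzyme A, a protease with trypsin-like specificity. It lay at 0.0377, 1.16, 1.80, 0.602 and 0.954 RPKM in the control livers, between 0.414 and 4.33 RPKM (median 1.29) in the pre-metastatic livers and between 1.96 and 33.7 RPKM (median 13.8) in the tumors, and the lowest tumor lay below 3 of the pre-metastatic livers. Gzmb (chr14:56258856-56262260, minus strand) encodes granzyme B, which cleaves after aspartate and activates caspases. It lay at 0.152, 1.21, 1.55, 0.345 and 0.911 RPKM in the control livers, between 0.274 and 9.35 RPKM (median 1.94) in the pre-metastatic livers and between 12.05 and 70.6 RPKM (median 18.8) in the tumors. All tumors lay above all livers for Gzmb, and the M5 liver (9.35 RPKM) stood apart from the other pre-metastatic livers, which reached 2.26 RPKM.

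Prf1 (chr10:61297546-61304263, plus strand), the perforin gene, showed the widest span of the 10. It lay at 0.0540, 0.0859, 0.0340, 0.0160 and 0.156 RPKM in the control livers, between 0.0102 and 1.43 RPKM (median 0.127) in the pre-metastatic livers and between 6.86 and 71.4 RPKM (median 10.8) in the tumors. The highest liver was that of M6, with 198 reads against at most 45 in the other pre-metastatic livers, and the highest tumor was that of M12, with 9529 reads. Nkg7 (chr7:43437138-43438246, plus strand), a membrane protein of cytotoxic granules needed for their release, lay at 0.346, 0.993, 1.43, 0.723 and 0.806 RPKM in the control livers, between 0.493 and 2.59 RPKM (median 0.759) in the pre-metastatic livers and between 3.68 and 13.5 RPKM (median 7.69) in the tumors. Its control and pre-metastatic livers shared 1 range, and every tumor lay above it. The Gzma model overlaps Cdc20b on the opposite strand.

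Eomes and Ifng were near the detection limit in liver. Eomes (chr9:118478189-118486132, plus strand), a T-box transcription factor of NK cells and effector CD8 T cells, had 0, 6, 7, 0 and 5 reads in the control livers, 2 to 27 reads in the pre-metastatic livers and 81 to 332 reads in the tumors, where its level was 0.390 to 1.64 RPKM (median 0.751). Ifng (chr10:118441046-118445894, plus strand), the interferon gamma gene, had 1, 1, 3, 5 and 0 reads in the control livers, 0 to 10 reads in the pre-metastatic livers and 16 to 155 reads in the tumors, where its level was 0.187 to 2.29 RPKM (median 0.892). For both genes all tumors lay above all livers. Eomes is overlapped by 2 unnamed or predicted gene models on the opposite strand.

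**Figure D1:**
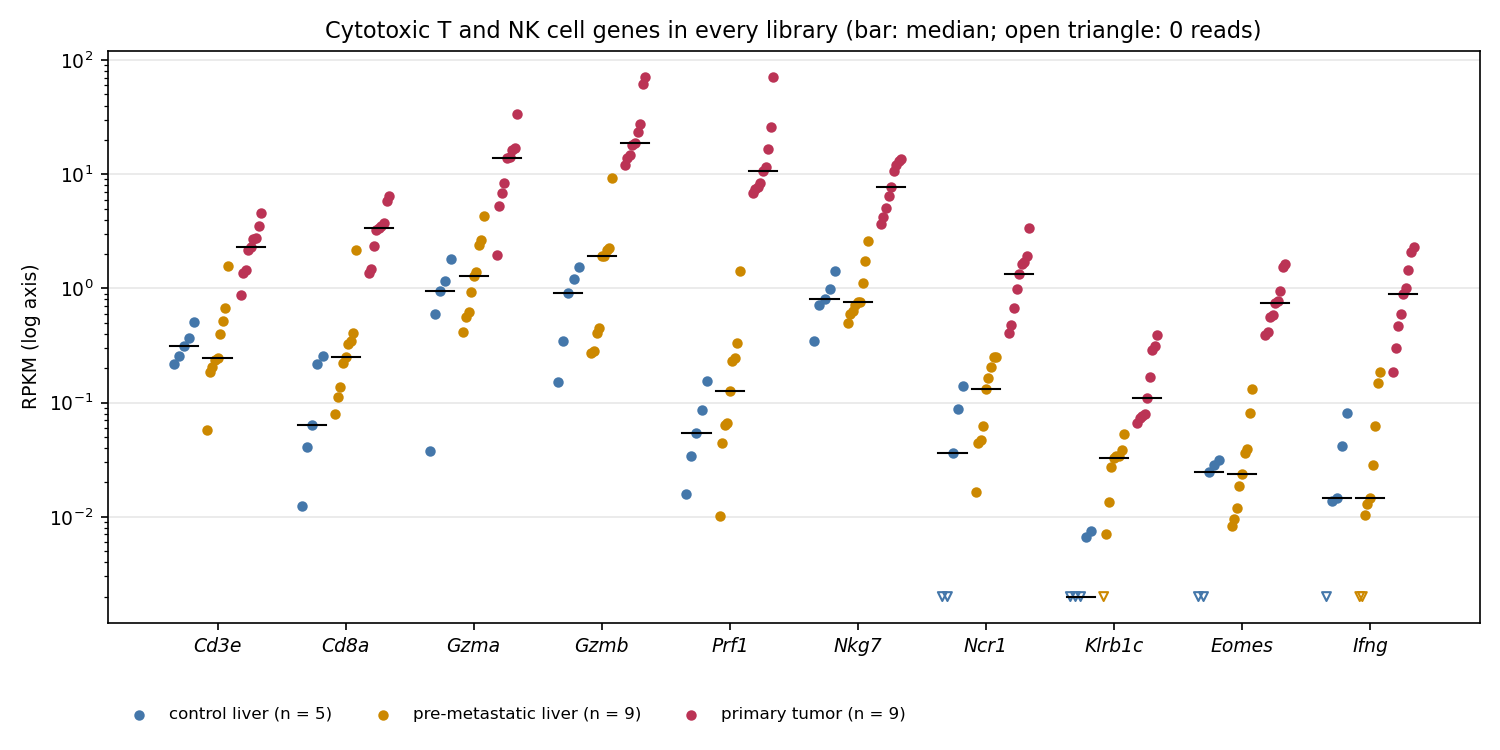
Levels of the 10 genes in each of the 23 libraries, in RPKM on a log axis, with 1 point per library in ascending order within a group, a bar at the group median and open triangles for libraries with 0 reads. The tumors lie above every liver except for Cd3e, Cd8a and Gzma, and the points of control and pre-metastatic livers overlap for all 10 genes.

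By median level per gene length in the tumors, the order was Gzmb, Gzma, Prf1, Nkg7, Cd8a, Cd3e, Ncr1, Ifng, Eomes and Klrb1c. All neighbours in that order overlapped in their ranges over the 9 tumors. Eomes and Klrb1c came closest to separation, with the lowest Eomes value at 0.390 RPKM and the highest Klrb1c value at 0.394 RPKM.

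To show the sequence near the start of the granule genes, the 250 bases before the start used by the RefSeq promoter set (GRCm38.p6) are printed for the 4 of them, 5′ to 3′ on the gene's own strand. For Prf1 this window runs past the start of the RefSeq gene at 61297751 and lies within the Prf1 model of the count table. The windows of Cd3e and Eomes, not printed, also reached into the RefSeq gene. Capitals mark the letters TGTGGT or its reverse complement ACCACA, bound by RUNX factors, and GGTGTG or CACACC, bound by T-box factors such as EOMES.
Gzma, chr13:113100982-113101231, minus strand: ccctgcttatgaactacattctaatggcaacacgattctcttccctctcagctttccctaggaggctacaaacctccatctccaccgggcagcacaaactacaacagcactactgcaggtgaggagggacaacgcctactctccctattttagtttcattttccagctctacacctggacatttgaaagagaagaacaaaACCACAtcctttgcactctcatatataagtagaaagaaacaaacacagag
Gzmb, chr14:56262335-56262584, minus strand: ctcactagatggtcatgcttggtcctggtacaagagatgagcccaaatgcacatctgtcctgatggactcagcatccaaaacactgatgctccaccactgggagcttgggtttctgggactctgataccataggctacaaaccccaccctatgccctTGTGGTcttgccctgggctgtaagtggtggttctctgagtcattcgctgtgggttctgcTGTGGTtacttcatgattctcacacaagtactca
Prf1, chr10:61297586-61297835, plus strand: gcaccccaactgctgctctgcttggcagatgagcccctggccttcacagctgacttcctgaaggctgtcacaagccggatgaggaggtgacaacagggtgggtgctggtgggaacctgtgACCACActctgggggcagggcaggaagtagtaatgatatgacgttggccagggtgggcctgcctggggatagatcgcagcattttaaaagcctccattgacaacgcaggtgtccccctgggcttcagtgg
Nkg7, chr7:43436888-43437137, plus strand: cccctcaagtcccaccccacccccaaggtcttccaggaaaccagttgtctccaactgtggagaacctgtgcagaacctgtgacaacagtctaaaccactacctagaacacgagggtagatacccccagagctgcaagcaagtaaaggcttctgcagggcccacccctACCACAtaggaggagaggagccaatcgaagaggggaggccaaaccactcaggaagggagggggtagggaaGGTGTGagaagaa
The RUNX letters were found in the window of 6 of the 10 genes, namely Gzma, Gzmb, Prf1, Nkg7, Ncr1 and Klrb1c, and in 14.2% of the windows of all 27025 promoters. Gzmb and Ncr1 held them at 2 places each. The T-box letters were found in 1 of the 10 genes, Nkg7, against 16.2% of all promoters. The letters TTCNNNGAA, bound by STAT factors and its own reverse complement, was found in 2 of the 10 (Nkg7 and Ifng) against 7.18% of all promoters. These matches describe the letters of the windows and no binding was measured.

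Between pre-metastatic and control livers, none of the 10 genes passed the test. Of the 7 with enough reads to be tested, all 7 had higher fitted levels in pre-metastatic livers, with a median log2 fold change of 1.34 against 0.01 over all 16989 genes tested, but 0 were called at an adjusted p under 0.05 by edgeR's quasi-likelihood test, where 17.7% of all genes were called higher and 31% in either direction. The groups overlapped for all 7, whereas 4.85% of all genes had every pre-metastatic liver above every control liver. At an unadjusted p under 0.05 there were 2, Cd8a and Prf1. The log2 fold change of Cd8a was 1.89 (SE 0.79, edgeR adjusted p = 0.0832) and that of Prf1 was 2.17 (SE 0.97, edgeR adjusted p = 0.102). DESeq2, which called 20% of all genes higher, called both, with adjusted p-values of 0.0242 for Cd8a and 0.0315 for Prf1. A fit of all 3 groups with edgeR called Cd8a alone (adjusted p = 0.0400), and 18.8% of all genes higher.

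These values rested in part on single livers. Without the M5 liver the log2 fold change of Cd8a was 1.07 and that of Gzmb 0.66, against 1.34 with it. Without the M6 liver that of Prf1 was 1.03. Gzma (log2 fold change 0.87, SE 0.62, edgeR adjusted p = 0.308) and Ncr1 (1.34, SE 0.78, adjusted p = 0.206) also had large errors, and Cd3e (0.46, SE 0.54, adjusted p = 0.550) and Nkg7 (0.33, SE 0.39, adjusted p = 0.554) lay nearest to 0. Leaving out any 1 of the 14 livers gave 0 calls each time. Within the early clock phase, 5 of the 10 genes could be tested and 0 were called, against 14.7% of all genes called higher, with log2 fold changes of 2.09 for Cd8a and 1.77 for Gzmb. The late phase holds a single control liver and gives no test.

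Klrb1c, Eomes and Ifng did not reach 10 reads in 5 livers and were compared by their reads alone. For Klrb1c there were 38 reads in the pre-metastatic and 2 in the control livers, a ratio of 10.5 per counted read (exact 95% interval 2.71 to 89.9, for counting error only). Its values differed by an exact Wilcoxon test (two-sided p = 0.0125 before adjustment over other genes), and edgeR without the filter on low counts called it with an adjusted p = 0.0312, on at most 9 reads in a library, where 8.79% of all genes were called higher. For Eomes the ratio was 2.27 (1.34 to 4.04), and for Ifng it was 1.60 (0.760 to 3.69), an interval that includes 1. Across the livers, the summed level of 3 leukocyte genes was 5.12 to 11.4 RPKM in control livers and 11.97 to 31.1 RPKM in pre-metastatic livers, with no overlap, and the part of this in the values above was not tested.

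In the tumors, all 10 genes were higher than in the pre-metastatic livers. By edgeR with Benjamini-Hochberg adjustment, 10 of 10 were called higher, where 43.8% of the 19751 genes tested were (83.3% in either direction), and 7 of 10 had no tumor within the range of the livers, against 52.9% of all genes. Of the 10, Ncr1, Klrb1c, Eomes and Ifng passed the filter on low counts only through the tumors, in which they were high. Their calls are thus not separate support. Each gene was higher in the tumor than in the liver of the same mouse in 9 of 9 mice (exact sign-flip test, p = 0.00391, the smallest that 9 pairs can give). The share of all genes higher in 9 of 9 mice is not given here. It cannot be small, because the 52.9% of genes with every tumor above every liver in RPKM are also higher in each mouse. The result in 9 of 9 mice is thus not particular to the 10 genes. The median log2 fold change of the 10 was 2.06, against 0.13 over all genes tested.

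Prf1 stood first, with a log2 fold change of 4.82 (SE 0.76, edgeR adjusted p = 7.54e-06), or 28.3-fold. Without the M6 liver it was 61.6-fold and without the M12 tumor 17.9-fold, and the adjusted p passed in both cases. Eomes (log2 3.28, SE 0.46, adjusted p = 1.86e-06) and Ifng (log2 3.21, SE 0.66, adjusted p = 0.000153) followed. Gzmb was at 2.69 (SE 0.60, edgeR adjusted p = 0.000392), and at 3.37 without the M5 liver. The T cell genes were called with smaller changes, Cd8a at 1.86 (SE 0.50, adjusted p = 0.00204) and Cd3e at 1.28 (SE 0.44, adjusted p = 0.0107). Without the M5 liver Cd8a was at 2.69. Ncr1 was at 2.24 (SE 0.48), Gzma at 1.88 (SE 0.48), Nkg7 at 1.87 (SE 0.33) and Klrb1c at 1.47 (SE 0.49), all with edgeR adjusted p-values of 0.0097 or less.

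Within the clock phases the same direction held for the 9 genes that could be tested in each, but 8 of 9 were called in each phase, against 40.2% of all genes called higher in the early phase and 37.6% in the late phase. Cd3e was the exception, with edgeR adjusted p = 0.0822 in the early phase and 0.0570 in the late phase. Ifng was at log2 4.07 in the early phase and 2.17 in the late phase, and Prf1 at 3.88 and 6.25. These fold changes are relative to a scaling that sets most genes level between liver and tumor. Scaled by library totals alone, the median gene was 1.30 log2 units higher in tumor rather than 0.13, and the fold changes of the 10 genes moved with it, with Prf1 at 6.03 and Cd3e at 2.40.

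Against control livers, the tumors were higher for 10 of 10 genes by edgeR (44.2% of the 19322 genes tested were, and 82.3% were called in either direction), and no liver reached a tumor for any of the 10, against 56.4% of all genes. This comparison shares its tumors with the one above and is not a second piece of evidence. Cd8a, Gzma, Prf1, Ncr1, Klrb1c, Eomes and Ifng passed the filter on low counts only through the tumors, in which they were high. Their calls are thus not separate support, and the fold changes below include them. Log2 fold changes ran from 1.77 for Cd3e (SE 0.37, edgeR adjusted p = 0.000313) to 6.98 for Prf1 (SE 0.86, adjusted p = 1.32e-06), with a median of 3.88 against 0.18 over all genes. Cd8a was at 3.77 and Gzmb at 4.05. For Klrb1c, with 2 reads in all control livers, the ratio of summed reads was 65.1 (exact 95% interval 17.8 to 540). Without the M12 tumor Prf1 was 81.2-fold higher rather than 127-fold. Without the C4 liver Ncr1 was 20.004-fold rather than 12.2-fold higher, and without the C6 liver Ifng was 25.5-fold rather than 15.96-fold higher.

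Other cell types differed between the tissues too. Markers of leukocytes summed to 89.2 to 184 RPKM in the tumors, 4 regulatory T cell genes to 3.28 to 5.80 RPKM against at most 1.31 RPKM in any liver, and 6 mast cell genes to 5.30 to 89.8 RPKM against at most 1.49 RPKM in any liver, with Mcpt1 and Mcpt2 at no more than 3 reads in each control liver. Granulocyte genes (6) summed to 33.7 to 196 RPKM in pre-metastatic livers against 7.23 to 20.2 RPKM in control livers. How far these cells contribute to the granule genes was not tested.

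To ask whether the genes kept their proportions, 10 ratios of 2 genes were formed within each library, per length, and compared in all 3 pairs of groups (30 exact permutation tests, two-sided, adjusted together). In the pre-metastatic livers Cd8a stood higher relative to Cd3e than in the control livers. The log2 ratio Cd8a/Cd3e was -1.76, -0.53, -1.21, -4.08 and -2.87 in the control livers, ran from -2.29 to 0.88 (median 0.02) in the pre-metastatic livers and lay between 0.12 and 0.74 (median 0.60) in the tumors. All control livers thus held less Cd8a than Cd3e and all tumors more, and the pre-metastatic livers spanned both ranges. The mean difference between pre-metastatic and control livers was 1.84 (exact permutation p = 0.0135, adjusted p = 0.0323) and 2.27 within the early clock phase (exact p = 0.00794). Between tumors and control livers it was 2.60 (exact permutation p = 0.0005, adjusted p = 0.0074). Between tumors and pre-metastatic livers it was 0.75 (exact permutation p = 0.0195, adjusted p = 0.0419), but 0.25 within the early phase (exact p = 0.206). The lowest control liver, C6, had only 2 reads of Cd8a. Leaving out any 1 liver kept the difference between pre-metastatic and control livers between 1.35 and 2.23 (exact p = 0.0462 or less).

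Relative to Ptprc, which encodes the leukocyte antigen CD45, Cd3e and Nkg7 were lower in pre-metastatic than in control livers. The log2 ratio Nkg7/Ptprc was -0.78, -0.33, 0.34, -0.57 and -0.75 in the control livers and ran from -2.42 to -0.82 (median -1.37) in the pre-metastatic livers, which did not overlap. The mean difference was -1.12 (exact permutation p = 0.002, adjusted p = 0.00999), and -1.08 within the early phase (exact p = 0.0317). For Cd3e/Ptprc the mean difference was -1.35 (exact permutation p = 0.0140, adjusted p = 0.0323), and -1.76 within the early phase (exact p = 0.0397). For Ncr1/Ptprc it was 0.50 (exact permutation p = 0.531, adjusted p = 0.638). In the tumors Cd3e/Ptprc was also lower than in control livers, with a difference of -1.10 (exact permutation p = 0.000999, adjusted p = 0.0074), and against pre-metastatic livers it differed by 0.24 (exact permutation p = 0.521, adjusted p = 0.638).

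The granule genes changed their proportions in the tumor. The log2 ratio Gzmb/Prf1 averaged 3.45 ± 1.51 (SD, n = 5) in control livers, 3.10 ± 1.76 (SD, n = 9) in pre-metastatic livers and 0.83 ± 0.54 (SD, n = 9) in tumors. Per gene length, perforin RNA was much scarcer than granzyme B RNA in liver and closer to it in tumor. The difference was -2.26 against pre-metastatic livers (exact permutation p = 0.00234, adjusted p = 0.0100) and -2.62 against control livers (exact permutation p = 0.000999, adjusted p = 0.0074). Within the early phase it was -2.41 (exact p = 0.0476) and -2.82 (exact p = 0.00794). Gzmb/Gzma was higher in tumors than in pre-metastatic livers by 1.39 (exact permutation p = 0.00592, adjusted p = 0.0163), in 8 of 9 mice, and by 1.004 within the early phase (exact p = 0.127).

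Per Cd3e, the effector genes Ifng and Eomes were also higher in the tumor. Ifng/Cd3e was higher than in pre-metastatic livers by 1.85 (exact permutation p = 0.00321, adjusted p = 0.0107) and Eomes/Cd3e by 1.91 (exact permutation p = 0.00123, adjusted p = 0.0074), each in 8 of 9 mice. Within the early phase they were higher by 2.53 (exact p = 0.0159) and 1.51 (exact p = 0.0476). In 6 and 3 of the 9 pre-metastatic livers, respectively, a gene of the ratio had 3 reads or fewer, and with 5 rather than 0.5 added to the counts the Ifng/Cd3e difference was 0.44 (exact p = 0.248). Ncr1/Cd3e was higher in tumors than in control livers by 2.56 (exact permutation p = 0.0030, adjusted p = 0.0107) and did not pass against pre-metastatic livers (0.71, exact permutation p = 0.158, adjusted p = 0.216). In 3 of the 5 control livers a gene of this ratio had 3 reads or fewer, and with 5 added to the counts the difference was 1.05 (exact p = 0.0260). Klrb1c/Ncr1 did not pass in any of the 3 comparisons (adjusted p = 0.224 or more). With 5 added to the counts, however, it was lower in tumors than in pre-metastatic livers (difference -1.27, exact p = 0.00226) and than in control livers (difference -1.30, exact p = 0.00999).

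**Figure D2:**
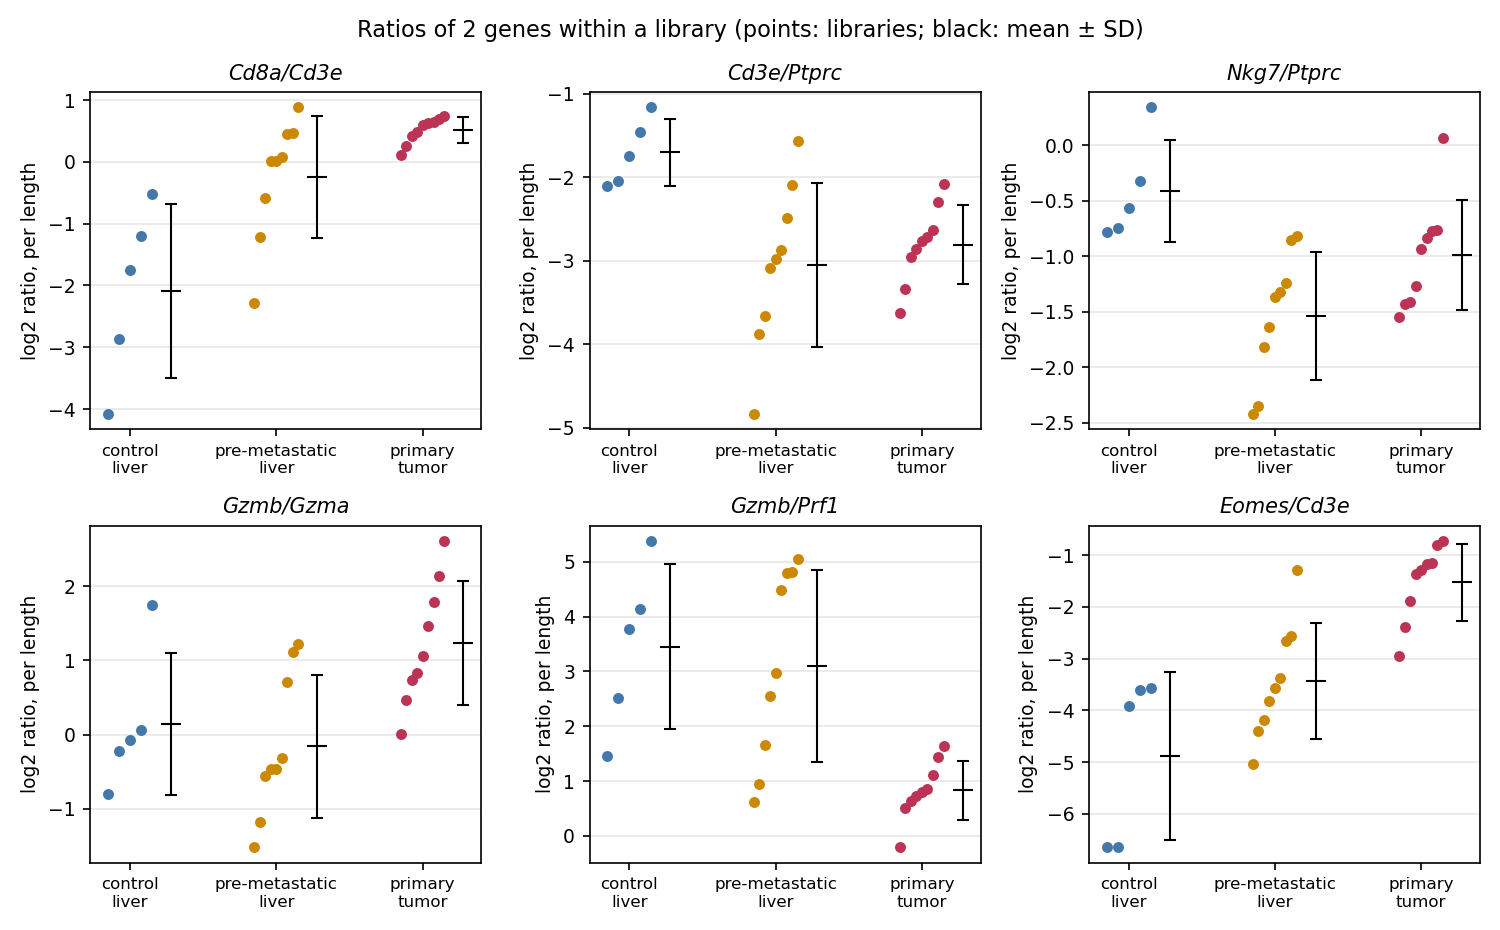
Log2 ratios of 2 genes per length within each library for 6 of the 10 ratios, with points for libraries and the mean with its SD in black. Cd8a/Cd3e is below 0 in all 5 control livers and above 0 in all 9 tumors, and Gzmb/Prf1 falls from a mean of 3.10 in pre-metastatic livers to 0.83 in tumors.

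Among the 9 tumors the genes did not all vary together. Of 45 pairs of the 10 genes, 41 had a positive Spearman rho (median 0.467), and 2 passed an exact permutation test adjusted over the 45. By Pearson r 5 passed, namely these 2 and Gzmb with Prf1, Gzmb with Eomes and Cd3e with Nkg7. Cd3e and Cd8a ran in parallel (Pearson r = 0.965, exact p = 2.48e-05; rho = 0.95, exact p = 0.000353, adjusted p = 0.00794), with the M1 tumor lowest and the M2 tumor highest for both. Without M1 and M2, which lay farthest from the median, r was 0.934. Gzma and Ncr1 likewise ran in parallel (r = 0.954, exact p = 3.58e-05; rho = 0.967, exact p = 0.000165, adjusted p = 0.00744), with the M6 tumor lowest and the M5 tumor highest for both, and r was 0.983 without M1 and M6. Centred within the clock phases, r was 0.980 for the first pair and 0.971 for the second (exact p = 0.000347 for both, the smallest the phases allow).

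Gzmb and Prf1 were related less firmly (r = 0.872, exact p = 0.00389, adjusted p = 0.0437; rho = 0.700, exact p = 0.0433, adjusted p = 0.139). Without the M5 and M12 tumors, the highest for both genes, r was 0.634 over 7 tumors and no longer passed (exact p = 0.125). Centred within the clock phases, over all 9, it was 0.872 (exact p = 0.00347). Across the 9 pre-metastatic livers, 36 pairs could be formed without Ifng, and 9 passed by r and 1 by rho after adjustment. The latter was Cd8a with Gzmb (r = 0.913, exact p = 0.000281; rho = 0.933, exact p = 0.00075, adjusted p = 0.0270), with r = 0.871 without M5 and M12. Clock phases hold 5 and 4 mice, too few for a correlation of their own.

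**Figure D3:**
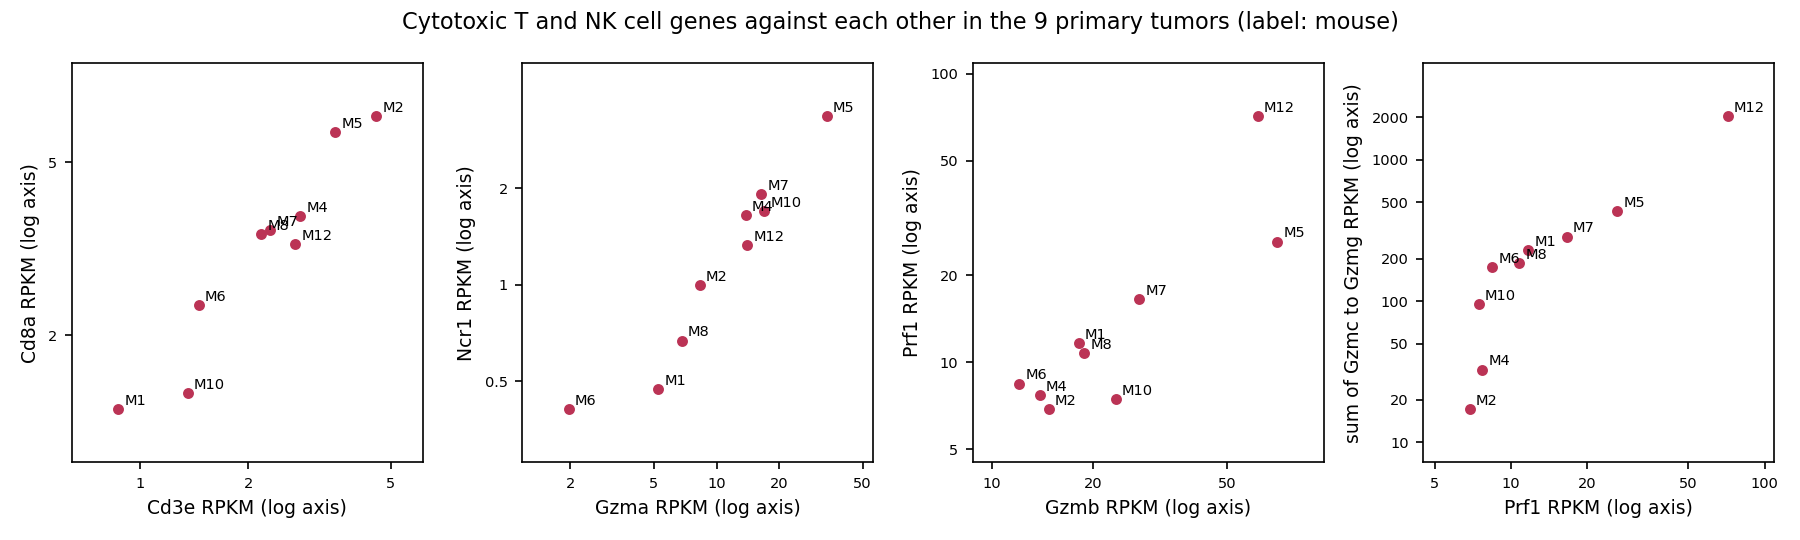
Levels of 4 pairs of genes, or sums of genes, in the 9 tumors, in RPKM on log axes, with each point labelled by its mouse. Cd3e with Cd8a and Gzma with Ncr1 lie close to a line, whereas in the panel of Gzmb and Prf1 the M5 and M12 tumors lie apart from the other 7.

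The granzymes C to G, which lie beside granzyme B in the mouse and are expressed by activated killer cells, were near 0 in liver and abundant in the tumor. Their summed level was 0.376 to 0.782 RPKM in the control livers, 0.386 to 35.5 RPKM (median 0.905) in the pre-metastatic livers and 17.1 to 2051 RPKM (median 187) in the tumors. The M6 liver was the highest liver and the M12 tumor the highest tumor. In the M6 liver, the reads of Prf1 and of each granzyme from C to G were between 1.72% and 2.08% of those in the M12 tumor, with 516 reads of Gzmd against at most 38 in the other pre-metastatic livers. Gzmb (3.67%) and Gzma (6.85%) were at higher percentages of the M12 tumor, within the range of the other livers. Whether reads of the M12 tumor library were carried over into the M6 liver library was not tested. Gzmc was higher in tumors than in pre-metastatic livers by 5.43 on the log2 scale (SE 0.90, edgeR adjusted p = 1.48e-05), and by 7.51 without the M6 liver, which held 154 of its reads against at most 11 in the other pre-metastatic livers.

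Across the tumors, Prf1 followed the sum of granzymes C to G, a pair chosen after the values were seen (r = 0.887, exact p = 3.58e-05; rho = 0.983, exact p = 4.96e-05; r = 0.788 without M5 and M12). Centred within the clock phases r was 0.892 (exact p = 0.000347). The M12 tumor had 71.4 RPKM of Prf1, and the other 8 tumors at most 26.2 RPKM.

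**Figure D4:**
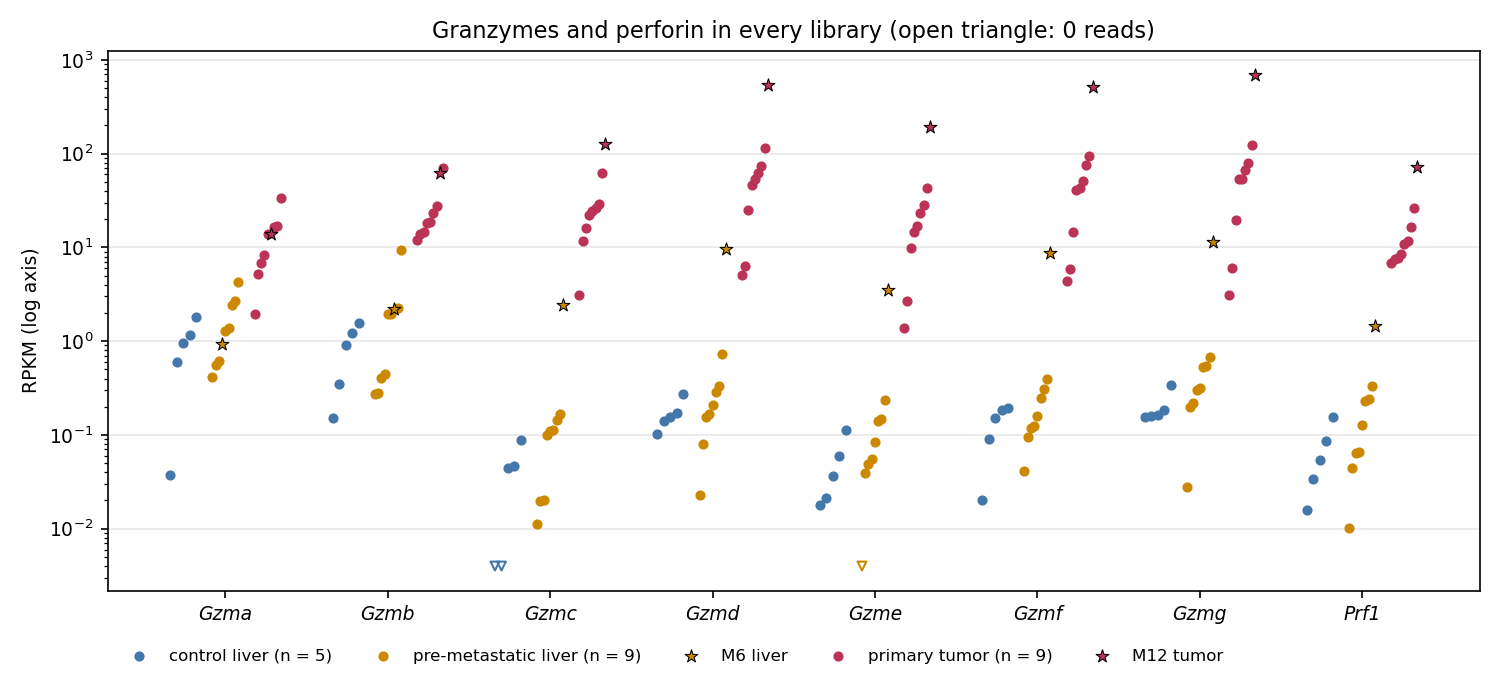
Granzymes A to G and perforin in each library, in RPKM on a log axis, with stars for the M6 liver and the M12 tumor and open triangles for 0 reads. For Gzmc to Gzmg and Prf1 the M6 liver lies above all other livers, and for Gzmd to Gzmg it lies above the lowest tumor, whereas for Gzma and Gzmb it lies among the other livers.

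The wider genes of the cytotoxic program were read as counts on lists. In the pre-metastatic livers, 2 of 21 T cell genes were called higher and 1 lower than in control livers by edgeR (all genes tested: 17.7% higher and 13.3% lower). Cd52, a surface glycoprotein of lymphocytes and other leukocytes, was higher by 1.62 (SE 0.34, adjusted p = 0.00234) on the log2 scale. Zap70, a kinase of the T cell receptor, fell by 0.97 on the log2 scale (SE 0.20, edgeR adjusted p = 0.00176), from 5.03 ± 0.777 (SD, n = 5) to 2.40 ± 0.670 RPKM (SD, n = 9). In the control livers Cd3e lay at only 0.218 to 0.505 RPKM, and which cells held the Zap70 RNA was not tested. Of 13 NK receptor and adaptor genes tested, 5 were called higher. The 2 whose groups did not overlap were Tyrobp and Fcgr3, which myeloid cells also express, with log2 changes of 1.30 (SE 0.23) and 1.14 (SE 0.21).

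Of 14 granule and death ligand genes, 5 were called higher and 1 lower in the pre-metastatic livers (all genes tested: 17.7% higher and 13.3% lower). Ctsc, the protease that activates granzymes and also neutrophil proteases, rose by 1.92 on the log2 scale (SE 0.18, edgeR adjusted p = 1.38e-05), and Rab27a, which docks secretory granules, by 1.37 (SE 0.22, adjusted p = 0.000339). Of 20 genes of interferon gamma induction and response (cytokines, receptors and induced genes, below called interferon genes), 12 were called higher and 0 lower. Examples were Ciita, the activator of class II genes, at 2.15 (SE 0.38, edgeR adjusted p = 0.000791), Il2rg, the common cytokine receptor chain, at 1.94 (SE 0.35), and Gbp2, an interferon-induced GTPase, at 1.51 (SE 0.34). Of the 5 genes listed as granzyme inhibitors, 4 were called higher, with Serpina3g at 2.36 (SE 0.51, edgeR adjusted p = 0.00286). Whether Serpina3g acts on granzymes was not tested. Of 14 effector transcription factors, 3 were called higher and 1 lower. Of 9 ligands of activating receptors 5 were called higher, and Raet1e, a stress-induced ligand of NKG2D, rose by 3.81 (SE 0.52, edgeR adjusted p = 0.000127), from 0.0474 ± 0.0415 (SD, n = 5) to 0.633 ± 0.286 RPKM (SD, n = 9). Without the C7 liver Raet1e was at 4.45. Within the early clock phase, where 14.7% of all genes tested were called higher, 12 of 20 interferon genes, 2 of 12 granule genes and 2 of 4 granzyme inhibitors were.

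In the tumors against the pre-metastatic livers, 13 of 21 T cell genes were called higher and 2 lower by edgeR (43.8% higher and 39.5% lower among all genes tested), among them Thy1 with a log2 change of 2.65 (SE 0.26). In the early phase 8 of 21 were called higher, against 40.2% of all genes tested there. Thy1 was at 15.8 ± 5.80 RPKM (SD, n = 9) in the tumors, where Cd3e was at 2.41 ± 1.14 RPKM (SD, n = 9). Fibroblast genes (4) summed to 494 to 792 RPKM in the tumors and to at most 127 RPKM in any liver. Which cells held the Thy1 RNA was not tested. Of 20 NK receptor genes, 14 were called higher and 1 lower. Klrb1a, a relative of Klrb1c, rose by 4.37 (SE 0.63) and Klrg1, an inhibitory receptor of mature effector cells, by 3.50 (SE 0.63), whereas S1pr5, the receptor by which mature NK cells leave tissues, fell by 6.76 on the log2 scale (SE 0.40, edgeR adjusted p = 3.48e-12). S1pr5 was at 3.18 ± 0.695 RPKM (SD, n = 5) in control livers, 2.78 ± 1.03 (SD, n = 9) in pre-metastatic livers and 0.0559 ± 0.0301 (SD, n = 9) in tumors. In liver it thus exceeded Ncr1 and Eomes many times over, and which cells held the S1pr5 RNA was not tested. Of 5 Ly49 receptors tested 4 were called higher. Klrb1a (at most 2 reads in a pre-metastatic liver) and Klra7 (at most 1) passed the filter on low counts only through the tumors. The same holds for Ido1 (at most 5 reads) and H60b (at most 3) on other lists. The list counts for the tumors include such genes, whose calls are not separate support.

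Of 19 granule and death ligand genes, 14 were called higher and 3 lower in the tumors, among them Tnf at 3.03 (SE 0.39) and Fasl, the death ligand of killer cells, at 2.71 (SE 0.45). Among all genes tested, 43.8% were called higher and 39.5% lower. Granzyme inhibitors were called higher in 3 of 5. Serpinb9b rose by 5.87 (SE 0.37, edgeR adjusted p = 9.05e-12) and Serpinb6a by 3.37 (SE 0.13), to 186 ± 17.8 RPKM (SD, n = 9), with little spread between tumors. Of 15 effector transcription factors, 9 were called higher and 5 lower. Runx3, which drives CD8 and NK effector genes, rose by 4.08 (SE 0.24, edgeR adjusted p = 2.57e-12) and Lef1, a factor of naive T cells and of WNT signalling, by 3.56 (SE 0.31), whereas Rora, which hepatocytes also express, fell by 6.03 on the log2 scale (SE 0.22).

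Of 23 interferon genes tested, 15 were called higher and 3 lower in the tumors (all genes tested: 43.8% higher and 39.5% lower). Ido1, an interferon-induced enzyme of tryptophan breakdown, rose by 7.74 (SE 0.64, edgeR adjusted p = 7.3e-10), from 0.00752 ± 0.0170 to 4.19 ± 2.73 RPKM (SD, n = 9 each), and by 9.17 without the M6 liver. Il18rap, a chain of the interleukin-18 receptor, rose by 5.83 (SE 0.36) to 23.5 ± 2.87 RPKM (SD, n = 9), a level above that of Cd3e in every tumor. Ligands of activating receptors were called higher in 6 of 11 and lower in 5, with Ulbp1, a ligand of NKG2D, at 6.39 (SE 0.31) and Pvr, a ligand of DNAM-1, at 2.71 (SE 0.16). Scaled by library totals, 67.6% of all genes tested were called higher and 21.3% lower. On that scale 7 of these 11 ligands were called higher and 2 lower, and the counts called higher were 17 of 21 T cell genes, 18 of 20 NK receptor genes, 15 of 19 granule genes, 5 of 5 granzyme inhibitors and 19 of 23 interferon genes.

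Against control livers, whose comparison shares the tumors, the counts called higher were 17 of 21 T cell genes, 15 of 20 NK receptor genes, 13 of 19 granule genes, 5 of 5 granzyme inhibitors and 18 of 23 interferon genes (44.2% of all genes tested). These counts also include genes that passed the filter on low counts only through the tumors. Examples were Klrb1a, with at most 1 read in a control liver, and Gzmc, with at most 5. Cd8b1, the partner chain of Cd8a, rose by 3.83 (SE 0.67, edgeR adjusted p = 6.43e-05), and by 4.57 without the C4 liver.

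As a description, the genes whose levels were most like the mean of the 10 over the 9 tumors were Gpr141, Myo18a, Arap1, Dhx8 and 2510002D24Rik, with Pearson r from 0.946 to 0.965 among 17770 genes. Over the 14 livers they were Kif21b, Tgtp1, Cxcl9, ENSMUSG00000097081.1 and Lck, with r from 0.920 to 0.956. The liver set includes Cxcl9, an interferon-induced chemokine, and Lck, the kinase bound to CD8 and CD4, whereas the tumor set holds no T cell receptor gene. No test was made of this likeness.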

How the data were processed

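Poly(A) RNA of liver and tumor was sequenced, and per the submitters' processing notes reads were aligned to mm10 with HISAT2 and counted with HTSeq 0.6.0; the annotation and the use of strand are not given in the sources used here. The authors deposited raw counts per gene and RPKM values per gene for all 23 libraries in 1 table of 48897 genes. The RPKM followed from the counts, gene lengths and count totals. No library pair was alike within sampling noise. Samples were grouped by their labels, with each library from 1 mouse, so that p-values measure the spread between mice.

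Pairs of groups were fitted with edgeR 4.0.16 (R 4.3.3; quasi-likelihood test, TMM scaling) after keeping genes that reached 10 counts in 5 or more of the libraries compared, with Benjamini-Hochberg adjustment over all genes tested and a threshold of 0.05. On simulated counts for the pre-metastatic against control livers, the fit recovered 62 of 100 genes changed by 1 log2 unit and 82 of 100 changed by 2, with 9 false calls among 16989. Ratios were formed per gene length after adding 0.5 to each count, and correlations used log2(RPKM + 1). Exact tests were two-sided. Alternatives were DESeq2 1.42.0, upper-quartile scaling, library totals alone, no filter, all 3 groups in the fit, early clock phase mice alone, each mouse as a block, and each library left out; the late phase alone was added after seeing the data. The clock phase of a mouse was set by Dbp, Per3, Ciart, Arntl, Npas2 and Clock in its liver. Tumor and liver were paired by mouse, as the labels state. As a check, the mean correlation of tumor and liver after subtracting group means was 0.0777 over the 9 same-mouse pairs and -0.00989 over the 72 other pairs.

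The 10 genes and the lists were chosen with earlier results of these data known. From each list, up to 3 genes per comparison were eligible to be named: those with the largest change among the genes called whose groups do not overlap. Of 131 listed genes 129 were in the table. Promoter sequences come from RefSeq (GRCm38.p6) and matched all 10 genes.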

Additional observations from a re-analysis of the deposited data

Results flagged for a closer look

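The 10 genes were searched in each of the 3 groups for a library set apart by a Dixon ratio above its 95% critical value. Of 30 groups, 6 held one. The 5% given by chance holds for normal values and independent groups, and neither was tested for these RPKM values. The 6 are thus not read as an excess over chance. Of the 6, 3 were in the liver of mouse M5. Cd3e was at 1.58 RPKM there against at most 0.677 RPKM in the other pre-metastatic livers, Cd8a at 2.18 against at most 0.408 RPKM, and Gzmb at 9.35 against at most 2.26 RPKM. Leukocyte genes in the M5 liver summed to 31.1 RPKM, beside 30.6 RPKM in the M1 liver, which was not set apart for these genes. Prf1 was at 1.43 RPKM in the M6 liver, 14.8 times the median of the other pre-metastatic livers. Among the tumors, Gzma was at 33.7 RPKM in the tumor of M5 against at most 16.9 RPKM in the others, and Prf1 was at 71.4 RPKM in the tumor of M12 against at most 26.2 RPKM.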

How the results depend on the processing

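Over all alternatives, 10 of 10 genes were called higher in the tumors in both comparisons, except that within a clock phase fewer could be tested or called, as given above. With each mouse as a block, 10 of 10 remained called against pre-metastatic livers, 8672 genes were called higher and 7659 lower in all (8649 and 7810 without it), and the block changed no call of the 10 genes. On the lists it gave 14 of 21 T cell genes, 14 of 20 NK receptor genes and 15 of 19 granule genes called higher. Among all genes it called 8672 of the 19751 tested higher. Of the ratios, the sign-flip test over the same pairs of liver and tumor brought Ncr1/Ptprc in the tumors under 0.05 (0.95, exact p = 0.00781).

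Of the genes described here, 0 were called by edgeR between pre-metastatic and control livers, where 17.7% of all genes tested were called higher. DESeq2 called 2 of the genes described here, and 20% of all genes higher. Without the filter 1 of them was called, against 8.79% of all genes called higher. With all 3 groups in the fit 1 of them was called, against 18.8% of all genes called higher. Scaling by library totals raised the genes called higher in tumors to 13353 (4207 lower) against pre-metastatic livers and to 12860 (4131 lower) against control livers, from 8649 (7810 lower) and 8542 (7356 lower), by moving the median gene from 0.13 to 1.30 and from 0.18 to 1.26 on the log2 scale.

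Several ratios that were not called changed sign, and the cause was not tested. With 5 added to the counts, Klrb1c/Ncr1 was at -0.032 and Ncr1/Ptprc at -0.57 between pre-metastatic and control livers, and Ncr1/Ptprc was at -0.23 between tumors and control livers. In the early phase, Klrb1c/Ncr1 was at -0.12 and Ifng/Cd3e at -0.55 between the livers. Leaving out 1 library at a time, the differences between the livers ran from -0.54 to 0.10 for Gzmb/Gzma (above 0 without C1), from -0.22 to 1.20 for Klrb1c/Ncr1 (below 0 without C5), from -0.85 to 0.13 for Gzmb/Prf1 (above 0 without C5), from -0.20 to 0.76 for Ifng/Cd3e (below 0 without M2 or C7) and from -0.052 to 1.02 for Ncr1/Ptprc (below 0 without C6). Klrb1c/Ncr1 between tumors and control livers ran from -1.12 to 0.29 (above 0 without C6). Depth limited the rarest genes, and Klrb1c, Ncr1, Eomes and Ifng had 3 or fewer reads in several livers. For Ifng, a ratio between the livers anywhere from 0.760 to 3.69 lay within counting error alone.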
